A study of Mus musculus with 6 samples.

Results

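Alveolar type 1 cells are the thin, flat epithelial cells that cover most of the gas exchange surface of the lung. Their marker genes were followed here in whole mouse lung as 9 genes: Ager, Hopx, Aqp5, Pdpn, Cav1, Rtkn2, Clic5, Akap5 and Emp2. All probe sets that the platform annotation ties to exactly 1 of these symbols were taken, which gave 17 of the 45037 probe sets of the array, for 8 of the 9 genes (Rtkn2 had none). The probe sets were 4 for Clic5, 3 each for Akap5 and Emp2, 2 each for Ager and Hopx, and 1 each for Aqp5, Pdpn and Cav1. They are numbered below within a gene from the brightest, and 16 of the 17 were brighter than the median probe set, so the labelled tissue carried these markers.

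All 6 mice were male BALB/c, labelled as 10 weeks old. The 3 control mice were reared in normal air and the 3 hydrogen mice in air with 2% molecular hydrogen, for 3 weeks, and each lung was measured on 1 array. The comparison asks how lung gene expression differs after the hydrogen exposure. Levels are the deposited log2 values, on which a difference of 1 is a doubling, and a log2 fold change is the hydrogen mean minus the control mean. A probe set or gene passed the test when the limma p-value adjusted over all probe sets, or over all 17097 genes, was under 0.05. By exact permutation the smallest two-sided p for groups of 3 is 0.1, which every member whose groups did not overlap reached.

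The alveolus is lined by 2 epithelial cell types. Type 2 cells are cuboidal, secrete surfactant and can give rise to type 1 cells, whereas type 1 cells spread into sheets that share a basement membrane with the capillaries. The proteins encoded by the 9 genes lie mostly at or under that wide membrane: a receptor, a surface glycoprotein, a water channel, a caveola scaffold, a tetraspan protein and anchors for signalling enzymes and the cytoskeleton.

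Of the 17 probe sets, 10 fell, none rose and 7 did not pass, or 58.8% lower, where 22.8% of all probe sets were lower and 24.3% higher (limma, adjusted p under 0.05; at an unadjusted p under 0.05, 11 members were lower and 1 higher). The groups did not overlap for 13 of the 17, 11 lower and 2 higher in hydrogen, where 57.3% of all probe sets did not overlap (30.9% higher, 26.4% lower). The changes were small. The median log2 fold change over the 17 was -0.20, against 0.02 over all probe sets, and the member that passed with the smallest size was Ager 1 with a log2 fold change of -0.15. With each gene represented by its brightest probe set, 5 of 8 genes fell and none rose (1 was higher at an unadjusted p under 0.05), while 52.5% of all genes passed, 26.4% as falls and 26.1% as rises. With each gene's probe sets averaged, Ager (-0.10, adjusted p = 0.134) and Hopx (-0.12, adjusted p = 0.103) no longer passed and Akap5 fell, which left 4 falls. Whole lung RNA cannot tell fewer type 1 cells apart from less of these RNAs per cell.

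The arrays of the groups differed widely beyond these genes. Of all probe sets 47.1% passed in either direction, and 49.4% of 85 array controls without a mouse target passed too, with log2 fold changes from -0.97 to 1.07. These controls moved by class. Of 18 bio and cre hybridisation controls 13 fell and none rose (median -0.40). Of 27 dap, lys, phe, thr and trpn controls 14 fell and none rose (median -0.25). Among 23 nonspecific controls 9 rose and among 17 tag controls 6 rose, with no fall in either class. Direction went with brightness: in the top 10% of mean level, which held 13 of the 17 members, 40.9% of probe sets were lower and 5.27% higher, and 8 of the 13 members (61.5%) were lower. In the top 1%, which held 6 members, the median log2 fold change was -0.02, 16.7% of probe sets were lower, and 3 of the 6 members were. Of the 17 members 13 lay below the median of their own 1% of mean level and 4 above it: Aqp5 by 0.12, Akap5 1 by 0.22, Emp2 1 by 0.05 and Emp2 3 by 0.40. The labels name no batch, so the exposure cannot be told apart from any batch that ran with the groups.

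**Figure D1:**
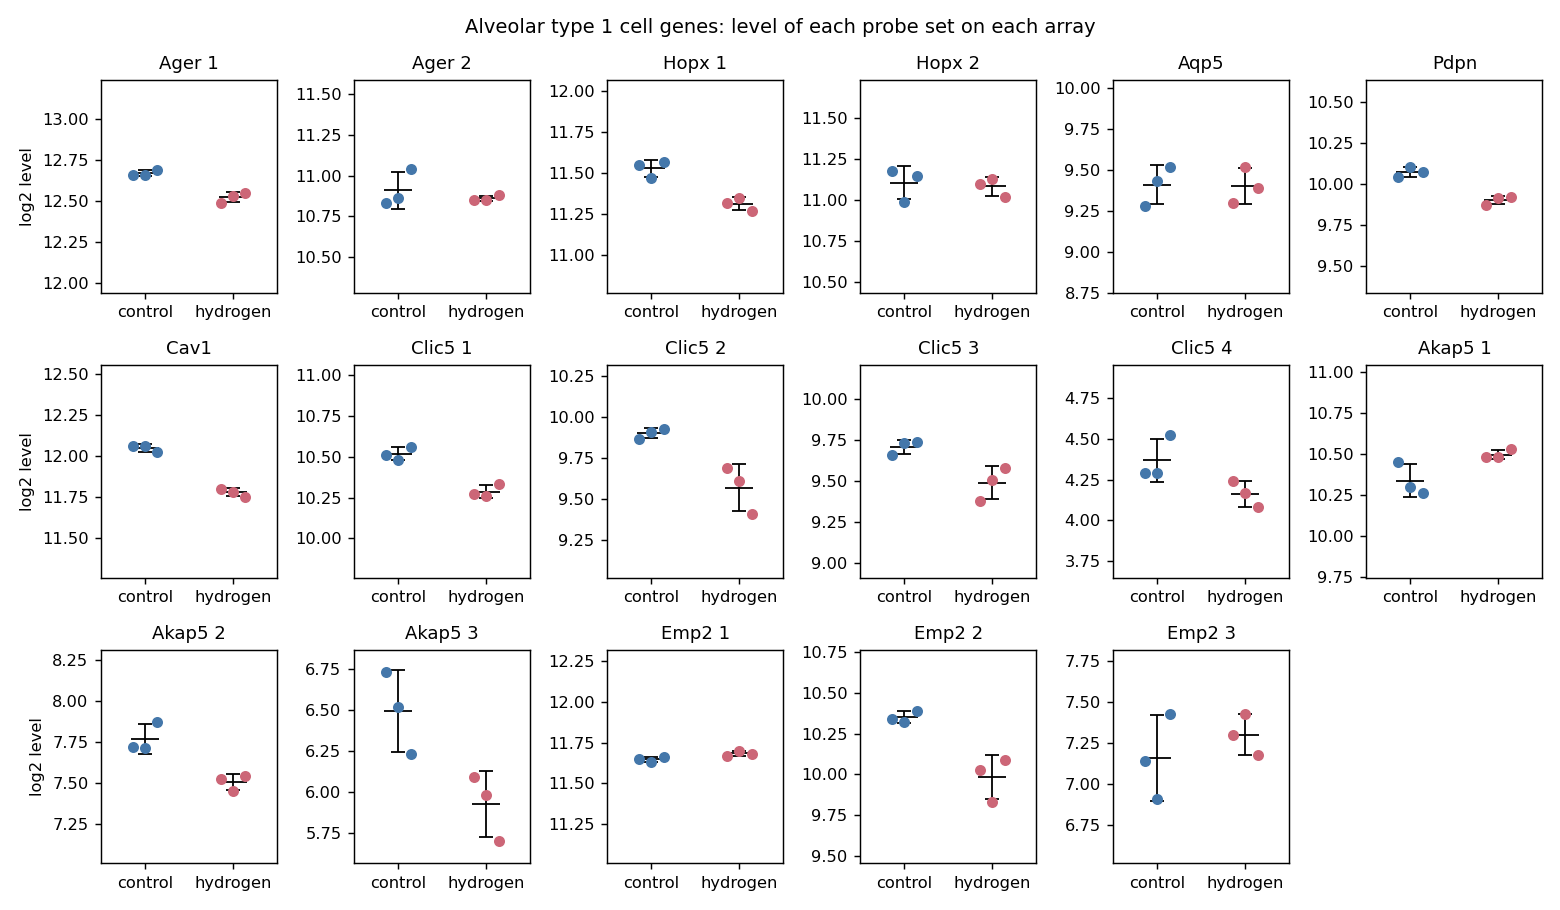
Log2 level (vertical axes, each spanning 1.3) of the 17 probe sets of the type 1 cell genes on each of the 6 arrays, 3 control (blue) and 3 hydrogen (red). Bars are the mean and SD. The groups do not overlap for 13 probe sets, 11 of them lower in hydrogen (among them Cav1, Pdpn and all 4 of Clic5) and 2 higher (Akap5 1 and Emp2 1).

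**Figure D2:**
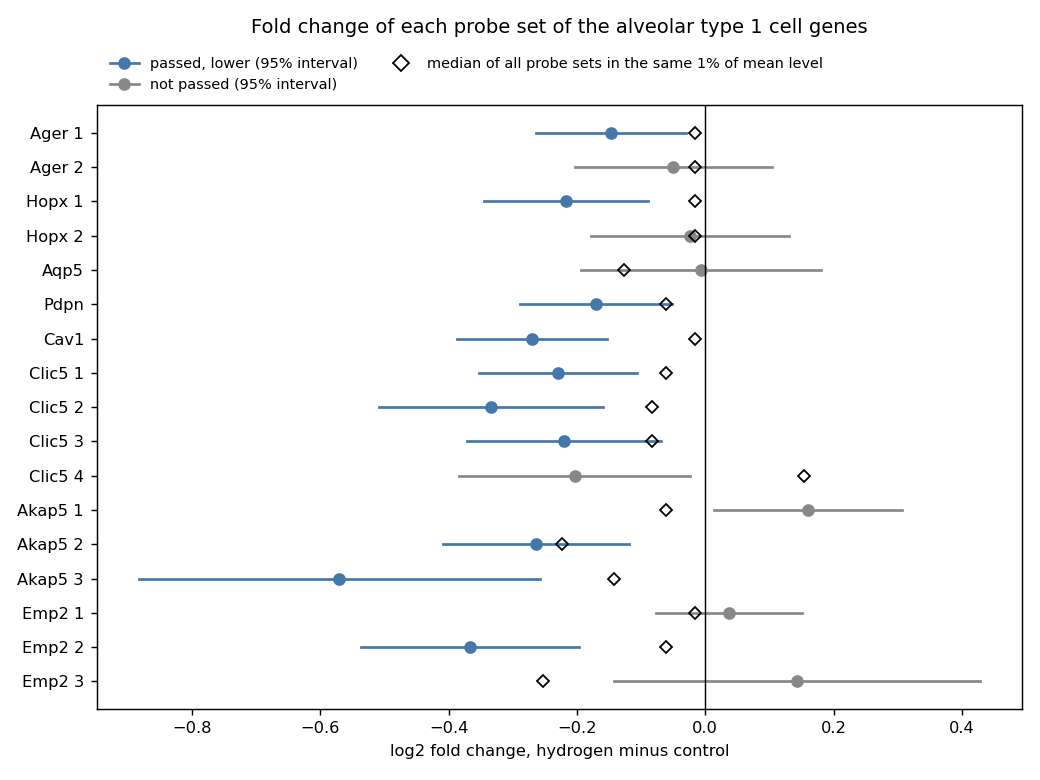
Log2 fold change, hydrogen minus control (horizontal axis), of the 17 probe sets with the limma 95% interval. Blue members passed and were lower, grey ones did not pass, and open diamonds mark the median of all probe sets in the same 1% of mean level. Of the 17 members 13 lie left of their diamonds, and Aqp5, Akap5 1, Emp2 1 and Emp2 3 lie right of them.

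The surface receptor and glycoprotein came first. Ager encodes RAGE, the receptor for advanced glycation end products, which type 1 cells carry in large amounts on the side facing the capillary. Its brightest probe set, 1441958_PM_s_at, read 12.66, 12.66 and 12.69 in the controls and 12.49, 12.53 and 12.55 in the hydrogen mice. All hydrogen values were below all control values, though by 0.11 at the nearest. The log2 fold change was -0.15 (SE 0.05; limma adjusted p = 0.0437), a change of -9.67%. This call was the least secure of the 10: it ended without any 1 of the 6 arrays (adjusted p = 0.0647 to 0.126), after renewed quantile normalisation (0.0718), with a replicate block (0.0779) and without dim probe sets (0.0588). The name of this probe set marks it as open to other transcripts. The second probe set, Ager 2 (1420428_PM_at), read 10.83, 10.86 and 11.04 in the controls and 10.85, 10.85 and 10.88 in the hydrogen mice. Its groups overlapped and it did not pass (log2 fold change -0.05, 95% interval -0.20 to 0.10).

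Pdpn encodes podoplanin, a mucin-like glycoprotein that also marks lymphatic and mesothelial cells. Its single probe set (1419309_PM_at) read 10.04, 10.10 and 10.07 in the controls and 9.87, 9.91 and 9.92 in the hydrogen mice. The groups stood 0.12 apart and Pdpn fell (log2 fold change -0.17, SE 0.05; limma adjusted p = 0.0264). The fall went to -0.05 after cyclic loess (adjusted p = 0.481) and to -0.08 after renewed quantile normalisation (0.258). It also missed the threshold when control replicate 2 (adjusted p = 0.0753), control replicate 3 (0.0528), hydrogen replicate 1 (0.082) or hydrogen replicate 2 (0.0665) was left out and with a replicate block (0.0507). Markers of the other cells that carry podoplanin moved in both directions: of 5 lymphatic markers 3 fell and 1 rose (median log2 fold change -0.50; mean level 6.19 to 6.31 in controls and 5.91 to 5.98 in hydrogen mice), and of 8 mesothelial markers 1 fell and 2 rose (median 0.18; mean level 5.97 to 6.49 and 6.43 to 6.49). Their part in the Pdpn value was not tested.

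Cav1 showed the most even fall among the members with 1 probe set. It encodes caveolin 1, the scaffold of caveolae, the flask-shaped membrane pits that are dense in type 1 cells and in the capillary endothelium. Its probe set (1449145_PM_a_at) read 12.06, 12.06 and 12.02 in the controls and 11.80, 11.78 and 11.75 in the hydrogen mice. The gap between the groups, 0.22, was many times the spread within either of them (SD 0.02 and 0.03, n = 3). Cav1 fell by 0.27 on the log2 scale (standard error 0.05, limma adjusted p = 0.00365), a change of -17.1%. It passed in each alternative that kept it, with log2 fold changes from -0.36 to -0.26. Most endothelial markers, which the same lungs carry, did not pass: of 13 measured, 3 fell, none rose (1 higher at an unadjusted p under 0.05) and 10 did not pass, with a median of -0.01 (mean level of the list 9.31 to 9.44 in controls and 9.23 to 9.40 in hydrogen mice). After cyclic loess 2 rose and 1 fell (median 0.17), and after renewed quantile normalisation 1 rose and 1 fell (median 0.16). Without control replicate 3 or hydrogen replicate 3, 1 fell. Their part in the Cav1 value was not tested.

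Other genes of caveolae were mostly within the test's limits. Of 9 listed genes, Cav1 included, 2 fell, none rose (1 higher at an unadjusted p under 0.05) and 7 did not pass, with a median log2 fold change of -0.13. Of the 9, 3 were dim. These included the coat gene Cavin1, the one higher at an unadjusted p (0.20, limma adjusted p = 0.0648). After median centring 6 fell and with the trend and robust prior 4, while 1 fell on leaving out any array but control replicate 3. The second that fell was Cavin3, a coat protein of caveolae (log2 fold change -0.23, limma adjusted p = 0.0252), whose value was -0.02 after cyclic loess (adjusted p = 0.846). The partner caveolin gene Cav2 had -0.14 (adjusted p = 0.0662) and the coat gene Cavin2 -0.07 (adjusted p = 0.347), neither past the threshold. As the mean of its 3 probe sets Cavin2 passed (-0.18, adjusted p = 0.0407).

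Aqp5 encodes aquaporin 5, the water channel of the type 1 cell's air-facing membrane, and showed no detectable difference. Its probe set (1418818_PM_at) read 9.28, 9.43 and 9.52 in the controls and 9.30, 9.52 and 9.39 in the hydrogen mice. The groups overlapped fully, and the log2 fold change was -0.0067 (95% interval -0.19 to 0.18; limma adjusted p = 0.954). The sign turned in both renewed normalisations (0.15 in renewed quantile normalisation and 0.14 in cyclic loess, adjusted p = 0.22 and 0.225). Airway glands also express Aqp5, and 8 of 10 airway secretory markers fell in the same arrays (median log2 fold change -1.74; mean level of the list 10.47 to 10.70 in controls and 7.96 to 9.83 in hydrogen mice), and 5 fell without control replicate 1 or without control replicate 2. Their part in the Aqp5 value was not tested.

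Emp2 encodes epithelial membrane protein 2, a tetraspan protein of the PMP22 family, and its 3 probe sets disagreed. Emp2 1 (1433670_PM_at) read 11.65, 11.63 and 11.66 in the controls and 11.67, 11.70 and 11.68 in the hydrogen mice. The hydrogen values were all the higher ones, but by 0.01, and the probe set did not pass (log2 fold change 0.04, 95% interval -0.08 to 0.15). Emp2 2 (1425272_PM_at) read 10.34, 10.32 and 10.39 in the controls and 10.03, 9.83 and 10.09 in the hydrogen mice. It fell by 0.37 on the log2 scale (standard error 0.07, limma adjusted p = 0.00498) and passed in every alternative. Emp2 3 (1425273_PM_s_at) ran from 6.91 to 7.43 in the controls and from 7.18 to 7.43 in the hydrogen mice and did not pass (0.14, adjusted p = 0.371), although it did after renewed quantile normalisation (0.37, adjusted p = 0.0485) and cyclic loess (0.38, adjusted p = 0.0499). The fold changes of Emp2 1 and Emp2 2 differed by 0.40, with no overlap between the groups in their within-array difference (exact permutation p = 0.1, two-sided, the smallest possible). A direction for Emp2 therefore depends on the probe set.

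All 4 probe sets of Clic5 were lower in the hydrogen mice, and 3 of them passed. Clic5 encodes chloride intracellular channel 5, a protein found with ezrin and radixin at the actin-bound membrane. Clic5 1 (1456873_PM_at) read 10.51, 10.48 and 10.56 in the controls and 10.27, 10.26 and 10.33 in the hydrogen mice. It fell by 0.23 on the log2 scale (standard error 0.05, limma adjusted p = 0.00919), with the groups 0.15 apart. Clic5 2 (1458381_PM_at) read 9.87, 9.91 and 9.93 against 9.69, 9.61 and 9.41 (log2 fold change -0.33, adjusted p = 0.0084), and Clic5 3 (1439505_PM_at) read 9.66, 9.73 and 9.74 against 9.38, 9.51 and 9.58 (-0.22, adjusted p = 0.0249). All hydrogen arrays were thus below all control arrays in each. The fourth, 1431261_PM_at, was dim, with 4.29, 4.29 and 4.52 against 4.24, 4.17 and 4.08; it did not pass (-0.20, adjusted p = 0.0625), while dim probe sets of its level had a median of 0.15. None of the 6 pairs of Clic5 probe sets differed in fold change without overlap.

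The size of the Clic5 fall moved with the normalisation. After cyclic loess the values of Clic5 1, 2 and 3 were -0.14, -0.20 and -0.08 and none passed (adjusted p = 0.0814, 0.0745 and 0.386), whereas the dim Clic5 4 did (-0.36, adjusted p = 0.00735). After renewed quantile normalisation Clic5 1 and 2 passed (-0.16 and -0.23, adjusted p = 0.0425 for both) and Clic5 3 did not (-0.09, adjusted p = 0.333). Clic5 3 also lost its call when either of controls 2 and 3 or of hydrogen mice 1 and 2 was left out (adjusted p = 0.0576 to 0.0817).

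Akap5 encodes an anchor that holds protein kinase A and the phosphatase calcineurin at the membrane, and its probe sets went opposite ways. Akap5 1 (1436142_PM_at) read 10.45, 10.30 and 10.26 in the controls and 10.48, 10.48 and 10.53 in the hydrogen mice. Every hydrogen array was above every control array, by 0.03 at the nearest, and the log2 fold change of 0.16 did not pass (SE 0.06; limma adjusted p = 0.0701). Akap5 2 (1447301_PM_at) read 7.72, 7.71 and 7.87 against 7.52, 7.45 and 7.54 and fell by 0.26 on the log2 scale (adjusted p = 0.0104). Akap5 3 (1431717_PM_at) read 6.73, 6.52 and 6.23 against 6.09, 5.98 and 5.70 and fell by 0.57 (SE 0.14; adjusted p = 0.0102), the largest change among the 17. The within-array differences of Akap5 1 from Akap5 2 and Akap5 3 did not overlap between the groups (0.42 and 0.73, exact permutation p = 0.1 each, two-sided). Akap5 1 passed as a rise after renewed quantile normalisation (0.23, adjusted p = 0.027), after cyclic loess (0.25, adjusted p = 0.0149), with a trend and robust fitting (0.0272) and without control replicate 1 (0.22, adjusted p = 0.0253). Akap5 2 dropped to -0.03 after cyclic loess (adjusted p = 0.712) and -0.04 after renewed quantile normalisation (adjusted p = 0.657). The mean of the 3 probe sets fell by 0.22 (adjusted p = 0.0152), so the direction given for Akap5 turns with how the gene is summarised.

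Hopx, the single nuclear factor of the set, fell on 1 of its 2 probe sets. It encodes an atypical homeodomain protein that does not bind DNA itself and is also expressed in the heart. Hopx 1 (1428662_PM_a_at) read 11.55, 11.47 and 11.57 in the controls and 11.32, 11.35 and 11.27 in the hydrogen mice. It fell by 0.22 on the log2 scale (standard error 0.06, limma adjusted p = 0.0137) and passed in each alternative that kept it (adjusted p = 0.00142 to 0.0426). Hopx 2 (1451776_PM_s_at), with 11.18, 10.99 and 11.15 against 11.10, 11.13 and 11.02, overlapped and did not pass (-0.02, 95% interval -0.18 to 0.13). The fold changes of the pair differed by 0.19, with no overlap in the within-array difference (exact permutation p = 0.1, two-sided). Of 17 cardiac muscle markers 13 fell and 3 rose in these lungs (median log2 fold change -1.63; mean level of the list 7.17 to 7.40 in controls and 5.17 to 6.41 in hydrogen mice), and 3 of the 17 were dim. With the trend and robust prior 7 of them fell. Their part in the Hopx value was not tested.

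**Figure D3:**
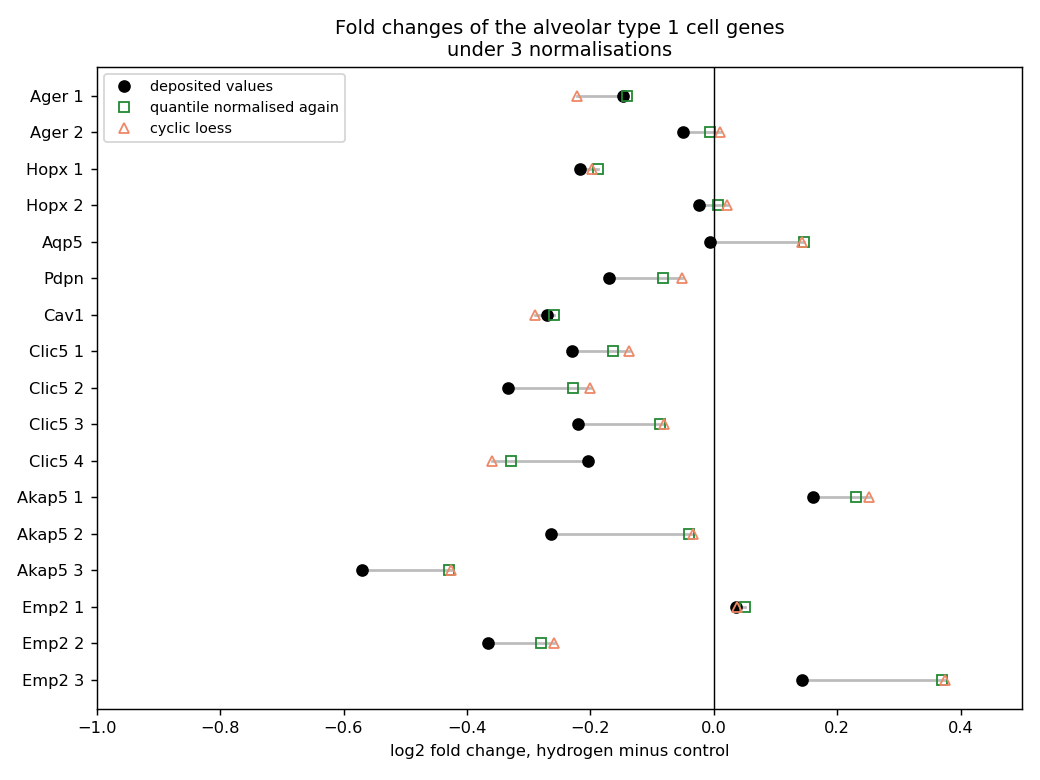
Log2 fold change, hydrogen minus control (horizontal axis), of the 17 probe sets from the deposited values (filled circles), after renewed quantile normalisation (squares) and after cyclic loess (triangles), joined by a grey line. Cav1, Hopx 1, Akap5 3 and Emp2 2 stay negative and past the threshold in all 3, while Pdpn, Clic5 3 and Akap5 2 move towards 0 and Akap5 1, Emp2 3 and Aqp5 move up.

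In each hydrogen mouse most members lay below their control mean. Each gene is represented here by its brightest probe set. The median deviation of the 8 genes from their control mean was -0.19, -0.15 and -0.14 in hydrogen replicates 1, 2 and 3, and -0.002, -0.01 and 0.02 in the 3 controls. The median was thus lower in every hydrogen mouse than in any control. Akap5 1 and Emp2 1 were above their control means in all 3 hydrogen mice and Aqp5 in 1. Akap5 2, Akap5 3 and Emp2 2 were instead below all controls in all 3. Of the genes outside the set, the 5 whose profile over the 6 arrays lay closest to the mean profile of the 8 were Serf2, Slc39a9, Ube2j2, Ddx39b and Gnb4, with root mean square differences of 0.01 to 0.02 on the log2 scale. Their log2 fold changes ran from -0.13 to -0.09 and none passed. Among the members Ager lay closest to the mean profile (0.02) and Akap5 farthest (0.15).

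These 4 promoters are shown because they belong to genes whose data differ: Cav1, Clic5 and Pdpn, which fell, and Aqp5, which did not pass. They are RefSeq sequences of GRCm38.p6, upstream of the start and written 5′ to 3′ on the strand of the gene. Capitals mark matches on either strand to the GC box (GGGCGG) or the TATA box (TATAAA). The stretches are chr6:17306085-17306334 (plus strand) for Cav1, chr17:44188472-44188571 (plus) for Clic5, chr15:99590928-99591027 (plus) for Aqp5 and chr4:143299565-143299664 (minus) for Pdpn.
Cav1: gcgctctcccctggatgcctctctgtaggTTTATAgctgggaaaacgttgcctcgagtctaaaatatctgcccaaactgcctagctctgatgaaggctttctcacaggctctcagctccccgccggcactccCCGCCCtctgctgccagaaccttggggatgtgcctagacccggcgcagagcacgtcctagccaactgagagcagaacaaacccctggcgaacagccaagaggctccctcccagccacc
Clic5: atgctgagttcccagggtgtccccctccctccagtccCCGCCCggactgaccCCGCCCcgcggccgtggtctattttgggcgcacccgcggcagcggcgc
Aqp5: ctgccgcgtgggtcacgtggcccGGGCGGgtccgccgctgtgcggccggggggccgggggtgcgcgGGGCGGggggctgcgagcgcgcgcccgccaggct
Pdpn: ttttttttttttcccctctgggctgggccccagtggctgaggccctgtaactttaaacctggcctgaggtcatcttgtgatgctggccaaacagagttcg
The table gave 10 promoters for 8 of the 9 genes, each searched over the 250 bases before the start. The GC box, a site of Sp1-type factors, was found in 5 of the 10, those of Aqp5, Cav1, Clic5, Akap5 and Emp2, where 32.7% of 32851 promoters held it. The gene without a detectable difference, Aqp5, and Clic5, which fell, both had 2 of them within 77 bases of the start. The TEAD motif (CATTCC, 12.6% of all promoters) was in none of the 10. The NKX2-1 motif (CTCAAG, 4378 of the 32851) was in 1 for Hopx and the TATA box (12.4%) in 1 for Cav1.

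Most other type 1 cell genes did not pass. Of 25 further markers measured, 6 fell, 2 rose and 17 did not pass, where 26.4% of all genes fell and 26.1% rose. Their median log2 fold change was -0.10, against 0.0067 over all genes. None of the 25 was dim, and all probe sets in the top 10% of mean level had a median of -0.13. Those that fell with the smallest p-values were Scnn1g, the gamma subunit of the epithelial sodium channel (log2 fold change -0.28, limma adjusted p = 0.00363), and Vegfa, the growth factor by which type 1 cells signal to capillaries (-0.24, adjusted p = 0.00987). Those that rose were Wnt7a, a Wnt ligand (0.45, adjusted p = 0.00212), and the orphan receptor gene Gprc5a (0.15, adjusted p = 0.0485). After cyclic loess this list held 4 rises and no fall, with a median of 0.05, and Scnn1g and Vegfa did not pass (-0.12 and -0.11, adjusted p = 0.132 and 0.184). After renewed quantile normalisation it was likewise 4 rises and no fall, with a median of 0.04. Other settings gave more falls, 12 after median centring and 10 with probe sets averaged by gene, while 3 fell without control replicate 2, hydrogen replicate 1 or hydrogen replicate 2. Over 8 members cyclic loess and renewed quantile normalisation each gave 3 falls and 1 rise, with medians of -0.09 and -0.11.

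Regulators of the type 1 fate moved in both directions. Of 17 genes for lung epithelial factors and the Hippo pathway, which acts through YAP and TAZ on TEAD factors, 7 fell, 4 rose and 6 did not pass, with a median of -0.08. After cyclic loess 2 fell and 3 rose (median -0.03), as after renewed quantile normalisation (median -0.01). Falls numbered 4 without control replicate 3, and rises 2 without control replicate 2 or hydrogen replicate 2. Yap1 fell from 9.16 ± 0.06 to 8.71 ± 0.09 (SD, n = 3; limma adjusted p = 0.000937), while the TEAD factor genes Tead3 (log2 fold change 0.39, adjusted p = 0.00194) and Tead4 (0.27, adjusted p = 0.014) rose. As the mean of its 2 probe sets Yap1 had a smaller fall (-0.22, limma adjusted p = 0.027). Tead4 did not pass after cyclic loess (0.13, adjusted p = 0.151). The TEAD target Ankrd1 fell most (-1.76, adjusted p = 0.000794), and it is a gene of heart muscle too, whose markers fell in the same arrays (median -1.63).

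Genes whose products bind those of the members fell in part. Of 18 such genes 10 fell, none rose (none at an unadjusted p under 0.05 either) and 8 did not pass. Among all genes 26.4% fell and 26.1% rose. The list's median log2 fold change was -0.22, and its mean level was 9.19 to 9.23 in controls. Bright probe sets fell often: 40.9% were lower in the top 10% of mean level (median -0.13) and 53.5% in the next 10% (median -0.23). Whether the list differed from genes of its own level was not tested. The smallest p-values belonged to the protein kinase A regulatory subunit genes that AKAP5 anchors, Prkar2a (-0.37, limma adjusted p = 0.00144) and Prkar2b (-0.68, adjusted p = 0.0015). Prkar2a had -0.12 as the mean of its 4 probe sets and did not pass (adjusted p = 0.0963), and Prkar2b had -0.24 without shared probe sets (adjusted p = 0.122). After cyclic loess 5 of the 18 fell, and without control replicate 1, 6 fell. Of 9 ligands and partners of RAGE, Tlr4 fell (-0.56, adjusted p = 0.000344), S100b rose from a dim level (0.32, adjusted p = 0.0018) and 7 did not pass, among them the neutrophil-borne ligand genes S100a8 (0.49, adjusted p = 0.0693) and S100a9 (0.41, adjusted p = 0.0849). Both passed after cyclic loess (0.66 and 0.58, adjusted p = 0.0315 and 0.0357). As the mean of its 2 probe sets S100b had 0.04 (adjusted p = 0.538).

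Most type 2 cell markers did not pass. Of 13 measured, 3 rose, 1 fell and 9 did not pass, where 26.1% of all genes rose and 26.4% fell. Their median was 0.02, beside -0.16 for the 8 type 1 genes and -0.10 for the 25 other type 1 markers. After cyclic loess the medians were 0.10 (3 rises, no fall), -0.09 (1 rise, 3 falls) and 0.05 (4 rises, no fall). The differences between the lists were not tested. The surfactant regulator Etv5 (log2 fold change 0.35, limma adjusted p = 0.00319) and the surfactant lipid enzyme gene Lpcat1 (0.28, adjusted p = 0.00772) rose, and the fatty acid synthase gene Fasn fell (-0.38, adjusted p = 0.012), a call that ended after cyclic loess (-0.21, adjusted p = 0.131). Of 10 markers of the transitional state between the types, 2 fell, 3 rose and 5 did not pass (median -0.14): Krt19, a keratin (-0.60, adjusted p = 0.000291), and the cell cycle inhibitor Cdkn1a (-0.80, adjusted p = 0.0186) fell, while Sfn (0.56, adjusted p = 0.00117) and Sprr1a (0.36, adjusted p = 0.00415) rose from dim levels. Cdkn1a and Sprr1a did not pass after cyclic loess (adjusted p = 0.0879 and 0.0687).

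**Figure D4:**
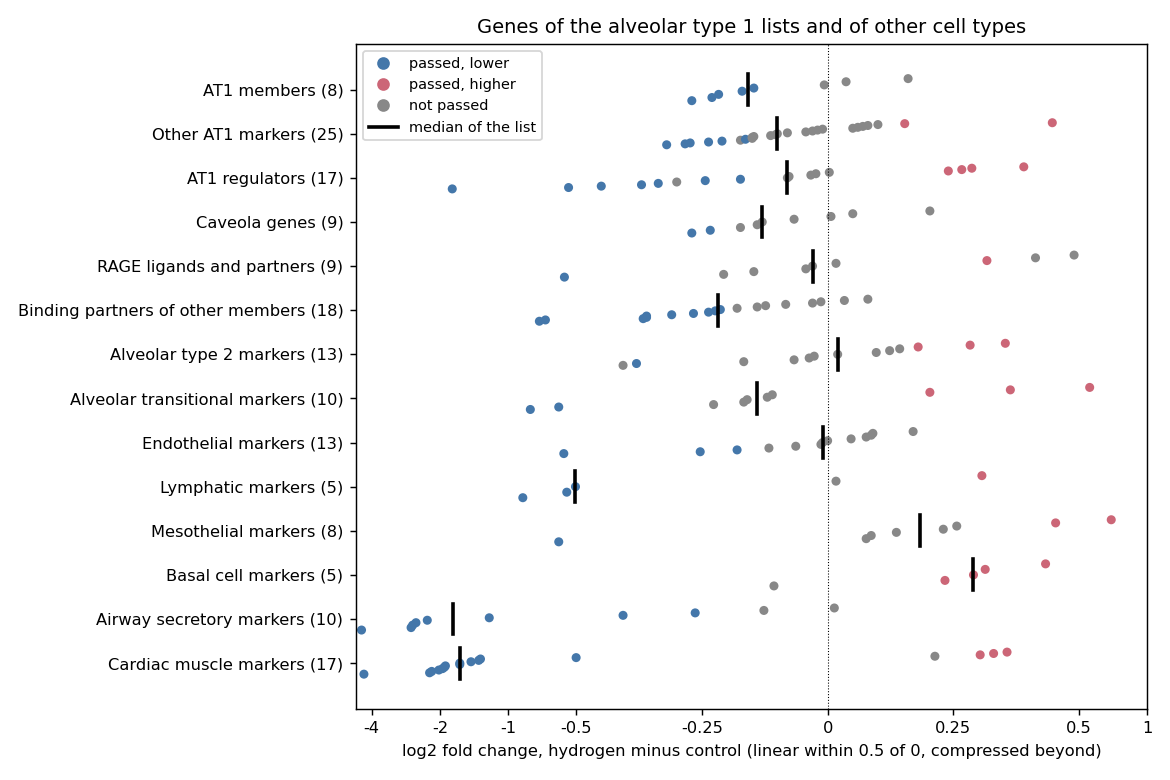
Log2 fold change, hydrogen minus control (horizontal axis, linear within 0.5 of 0 and compressed beyond), of each measured gene of the type 1 cell lists and of other cell types, by its brightest probe set. Points are spread vertically by rank within a list, black bars are list medians, and numbers in brackets are genes measured. The 8 member genes lie between -0.27 and 0.16 and the 25 other type 1 markers between -0.32 and 0.45. Airway secretory and cardiac muscle markers have medians of -1.74 and -1.63.

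Among the other cell types, the endothelial falls were those of Car4 (log2 fold change -0.57, limma adjusted p = 0.000432), a carbonic anhydrase of aerocyte capillaries, of Vwf (-0.18, adjusted p = 0.0279; -0.03 after cyclic loess) and of Pecam1 (-0.25, adjusted p = 0.0203; -0.06 after cyclic loess, adjusted p = 0.555). The lymphatic falls included the hyaluronan receptor gene Lyve1 (-0.86) and Reln (-0.50), while Flt4 rose (0.31, adjusted p = 0.0289; 0.18 after cyclic loess, adjusted p = 0.157). The mesothelial rises were the uroplakin genes Upk3b (0.69) and Upk1b (0.45). Of 5 basal cell markers, 4 of them dim, 4 rose, with Ngfr (0.43) and Krt14 (0.31) the clearest. Dim probe sets in general rose more often than they fell. In the 5 dimmest bands of 10% by mean level, 9.76% to 42.1% were higher and 2.93% to 13.45% lower. In the airway secretory list Bpifb1 (-2.27) and Muc5b (-1.21) had the smallest p-values, and in the cardiac list Actn2 (-1.91) and Ldb3 (-1.63). Myl2 (0.36) and Gata4 (0.33) rose in the cardiac list. Myl2 was dim, and Gata4 had a control mean of 4.72, near the level of the median probe set (4.80).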

How the data were processed

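Whole lungs of 6 mice were measured on MG-430 PM Array Strips, 1 array a mouse. The deposited values are log2 levels of each probe set; per the submitters' processing notes the authors used RMA and Affymetrix Expression Console. Tool versions and whether all arrays went through one normalisation were not given in the sources used. The spread of the deposited values still differed between the groups (SD over probe sets 1.90 to 1.92 in controls, 1.80 to 1.81 in hydrogen mice), so renewed normalisations were tried. No scanner files were used.

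Of 45141 probe sets, 104 array controls were set aside and tested separately, within a fit of the whole table. The annotation names 1 gene for 28898 of the other 45037, several for 551 and none for 15588, and 28689 matched RefSeq by Entrez identifier. The hydrogen minus control contrast was fitted in limma 3.58.1 under R 4.3.3 (linear model with eBayes, no trend, no filter, Benjamini-Hochberg adjustment over all probe sets, or over 17097 genes by the brightest probe set). The members and gene lists were chosen with earlier results of these data known. Named genes are all member probe sets, of each other list the 2 passing genes with the smallest p in each direction, and the 5 genes of nearest profile; Cav2, Cavin2, S100a8, S100a9 and Vwf were added after their values were seen, as was the comparison with each 1% of mean level. Of 171 entries in 13 further lists, 159 were measured. Precision is limited by 3 arrays a group; each mouse is a replicate by the series' design.

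Same-numbered arrays had deviations with r of -0.11 to 0.08, and arrays of other numbers had r of -0.14 to 0.11. With 3 arrays a group these values cannot show whether the replicate numbers pair the mice, so the main fit used no pairing and a replicate block was an alternative. On simulated arrays the fit was tested for recovery of known changes. Alternatives were a replicate block, median centring, renewed quantile normalisation, cyclic loess, array weights, a trend and robust prior, leaving out dim or shared probe sets, the mean of all probe sets, and leaving out each array. Plots were made by matplotlib 3.10.9 (Python 3.11.15).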

Additional observations from a re-analysis of the deposited data

How the results depend on the processing

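Under 15 alternatives, 4 member probe sets (Hopx 1, Cav1, Akap5 3 and Emp2 2) passed as lower in each that kept them. The count of member probe sets that fell was 10 as reported, 8 with a replicate block, 6 after cyclic loess and 7 to 9 on leaving out 1 array; the count that rose was 0 as reported, 2 in either renewed normalisation (cyclic loess, quantile), 1 with the trend and robust prior, and 0 to 1 on leaving out 1 array. By gene, the count of falls was 3 in either renewed normalisation, 4 with a replicate block and 3 to 4 on leaving out 1 array. Rises numbered 1 in either renewed normalisation and with the trend and robust prior, and 0 to 1 on leaving out 1 array. Without shared probe sets 2 genes fell, Pdpn and Clic5. Among the members, the probe sets left out in this setting had _s_ or _a_ in their names. They were taken out by name alone, although the annotation names 1 gene for each. Whether they read other genes was not tested. The probe sets left out included all those of Cav1 and Hopx, so the falls of these genes were not tested there. Ager then rested on Ager 2 and did not pass (-0.05, limma adjusted p = 0.56). Over all probe sets 10956 rose and 10257 fell, with 6377 rises after median centring and 3663 without dim probe sets. Of the 45037 probe sets, 9791 fell with a replicate block, 8177 after cyclic loess and 7938 to 9608 on leaving out 1 array. Rises numbered 7659 after cyclic loess, 8442 after renewed quantile normalisation, 11752 with the trend and robust prior and 7985 to 10097 on leaving out 1 array. Over all genes 4454 rose and 4516 fell, with 2670 falls after cyclic loess, 2511 after renewed quantile normalisation, and 2758 rises after median centring and 1769 without dim probe sets. Gene falls numbered 4258 with a replicate block and 3627 to 4162 on leaving out 1 array.

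Signs turned for members that did not pass. Aqp5 was 0.0046 with array weights (0.0028 in the fit by gene), 0.14 after cyclic loess, 0.15 after renewed quantile normalisation and -0.072 to 0.048 on leaving out 1 array. Hopx 2 was 0.0041 with array weights, 0.021 after cyclic loess, 0.0072 after renewed quantile normalisation and -0.082 to 0.013 on leaving out 1 array. Ager 2 was 0.010 after cyclic loess and -0.090 to 0.015 on leaving out 1 array. Emp2 1 was -0.053 after median centring, and the mean of all probe sets gave -0.062 for Emp2 and -0.22 for Akap5. The cause was not tested.

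Each level is 1 array, and 3 arrays a group set the precision. The brightest members lie near the top of the scale and Clic5 4 near the floor. The lists outside the members kept their counts of rises and falls within 1.5 times in 302 of 390 cases. This share differed by setting. After cyclic loess 12 counts moved further and 14 did not, and after renewed quantile normalisation 11 moved and 15 did not. With array weights 1 moved and 25 did not.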
